A study of Mus musculus with 12 samples.

Results

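The comparison described here set liver progenitor cells that lack Cdk8 and carry oncogenic H-RasG12V against the untransformed cells of the same line. It asked which expression changes of Ras transformation were present in cells without this kinase. The members were the 3 libraries titled Cdk8 KO RasG12V and the 3 libraries titled WT, 6 of the 12 in the series. BMEL cells are a bipotential mouse embryonic liver line, a progenitor type that can give rise to hepatocytes and bile duct cells. The line came from a CDK8F/F mouse, a notation for floxed alleles that Cre recombinase can delete, so the untransformed cells share this origin. The untransformed group had the genotype wild type and no transformation, and the other group was Cdk8 -/- and transformed with H-RasG12V, called the knockout cells below. Another group, WT RasG12V, was transformed with the same oncogene with the genotype wild type and is given beside single results only. Cdk19 -/- cells with H-RasG12V make up the rest of the series and enter only the scaling and the fits over all 12 libraries. All cells were growing exponentially on collagen-coated plates in medium with serum, insulin, IGFII and EGF. The labels do not say how Cdk8 was removed, how many clones were used, or whether the replicates were separate cultures, so p-values measure the spread between these libraries, which may be technical. The series has no untransformed cells without Cdk8, so effects of H-RasG12V and of the loss of Cdk8 cannot be told apart in this comparison.

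H-Ras is a small GTPase that relays growth factor signals to the RAF, MEK and ERK kinases and to PI3K, and RasG12V is a mutant form that stays bound to GTP. ERK acts on transcription factors of the ETS and AP-1 families, and the genes they switch on include phosphatases and Sprouty proteins that feed back on the pathway. Cdk8 and its paralogue Cdk19 are the alternative kinases of the Mediator kinase module, together with cyclin C, MED12 and MED13. This module joins the Mediator complex that connects transcription factors with RNA polymerase II, and it has been studied as a cofactor in colon and liver tumours.

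The 6 libraries held 28202944 to 36879661 reads counted in genes, and 65.2% to 67.0% of reads fell in genes. Levels are given in CPM, the reads of a gene scaled to a common library size, after TMM scaling, a scaling that evens out composition between libraries, and always in the order of replicates 1, 2 and 3. At this depth 3 counts in a library correspond to 0.0813 to 0.106 CPM. Untransformed replicate 3 stood apart from its group. Its counts differed from those of untransformed replicates 1 and 2 by a mean chi-square per gene of 52.0 and 52.4, against 7.69 between replicates 1 and 2 and 9.12 to 16.0 among the knockout libraries. It lay between the other untransformed libraries and the knockout libraries on the first principal component, which held 76.05% of the variance, and apart from all 5 on the second, with 12.28%. List counts and fold changes of named genes that leaving this library out moved by over 1.5 times are also given without it. An exception is Upk3b, among the other observations.

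**Figure D1:**
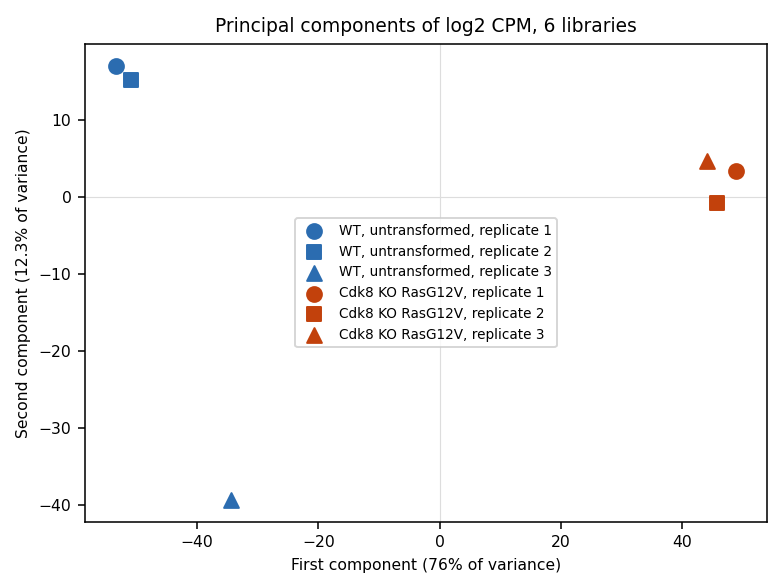
Principal component scores (no unit) of log2 CPM over the genes tested, one point per library, with the first component on the x axis and the second on the y axis. The knockout libraries lie at 44.1 to 48.9 on the first component and the untransformed ones at -53.4, -50.9 and -34.4, and untransformed replicate 3 lies at -39.4 on the second.

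The cells carried the epithelial and hepatic markers of the line in both groups. Krt8, Krt18 and Krt19, keratins of simple epithelium, Hnf4a and Foxa2, hepatic transcription factors, and Sox9, a bile duct regulator, were measured in all 6 libraries. Alb, the albumin gene, was low in the untransformed cells, at 4.12, 3.31 and 1.73 CPM, and was counted once in the 3 knockout libraries, and Epcam was counted 5 and 8 times per group. Msln, a mesothelial and biliary surface gene, stood at 1360 to 1651 CPM in all 6 libraries, while Wt1, a mesothelial transcription factor, had 3 and 4 counts per group. Summed over 12 stellate cell and fibroblast markers, levels were 0.532 to 1.13 CPM in untransformed and 1.84 to 2.37 CPM in knockout libraries, with Lrat at 0. Summed endothelial markers were 0.284 to 0.556 and 0.487 to 0.678 CPM. Macrophage and leukocyte markers summed to 36.0 to 46.0 and 40.1 to 47.0 CPM, almost all from Cd14 and Cd68, and Adgre1 and Clec4f were at 0. In these bulk samples, fewer cells of a type and less RNA per cell cannot be told apart.

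Hras, the gene of the introduced oncogene, was 9.02-fold higher in the knockout cells. It was measured at 57.5, 51.7 and 40.6 CPM in the untransformed libraries and at 456, 444 and 452 CPM in the knockout libraries (log2 fold change 3.20, SE 0.12, adjusted p = 5.1e-07, edgeR quasi-likelihood test, as for all adjusted p-values below). The groups did not overlap, and reads of an introduced H-RasG12V may be counted in this gene (chr7:141189105-141194005, minus strand, GRCm38). Cdk8 itself (chr5:146231230-146302874, plus strand) stood at 49.5, 45.7 and 43.7 CPM in untransformed and 41.3, 43.8 and 43.2 CPM in knockout libraries (log2 fold change -0.092, SE 0.081, adjusted p = 0.451). The groups overlapped, and no loss of the transcript was detected over the whole gene. A count over the gene does not test the deleted part, so these values do not check the knockout label.

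Cdk19, the paralogue, was lower in the knockout cells, from 88.2, 83.4 and 91.6 to 58.8, 62.8 and 69.8 CPM (log2 fold change -0.44, SE 0.086, adjusted p = 0.00468), and its groups did not overlap. WT RasG12V cells had 64.6, 67.1 and 93.6 CPM. Ccnc, which encodes the cyclin C partner of both kinases, rose from 36.9, 37.5 and 37.2 to 48, 49 and 44.3 CPM (log2 fold change 0.36, SE 0.079, adjusted p = 0.00783). Of the 33 genes of Mediator, all tested, 4 were higher and 2 lower, beside 13.3% and 13.1% of all genes. Their median log2 difference was 0.06. The other rises were Med10 (0.48, SE 0.091) and Med4 (0.30, SE 0.094), subunits of the core complex, and Med12 (0.24, SE 0.078) of the kinase module, and Med11 fell (-0.68, SE 0.11). The count of higher genes was 2 without untransformed replicate 1 or 2 or without knockout replicate 1 or 2, since the calls of Med4 and Med12 were lost there (that of Med12 also without knockout replicate 3). Med13 stood at a log2 difference of 0.062, with no call.

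Of 13947 genes tested, 1851 (13.3%) were higher and 1833 (13.1%) lower in the knockout cells at an adjusted p under 0.05. The median log2 fold change over all genes was 0.0032 and the median absolute change 0.226. Changes of at least 1 on the log2 scale made up 653 of the rises and 627 of the falls, and changes of at least 3 made up 162 and 137. The 2 groups of libraries did not overlap for 5971 genes (42.8%), among them 1841 of the genes called higher and 1821 of those called lower. Separation of a called gene, given below, therefore adds little to its call. Leaving out untransformed replicate 3 raised the calls to 3045 higher (21.3%) and 2882 lower (20.2%) of 14284 genes, and 1837 of the 1851 and 1821 of the 1833 were called again. With each library left out in turn, 1094 of the rises and 1030 of the falls passed every time. List counts below are to be read beside the shares of 13.3% and 13.1% over all genes. Those without untransformed replicate 3 are to be read beside the 21.3% and 20.2% of that fit.

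The 12 largest rises were taken from called protein-coding genes of at least 5 CPM whose groups did not overlap. They were led by a receptor, matrix-degrading enzymes and secreted proteins. Lilr4b, a leukocyte immunoglobulin-like receptor gene, had 2 counts over the untransformed libraries and 1201 over the knockout libraries, a ratio of 576 (95% counting interval 159 to 4764). Both untransformed counts came from replicate 3; without that library the gene had 0 counts in the group and was at least 247-fold higher in knockout cells, against a floor of 3 counts over replicates 1 and 2. Mmp10, the matrix metalloproteinase stromelysin 2, rose 128-fold, from 0.78, 1.24 and 0.864 to 103, 138 and 128 CPM (log2 fold change 7.01, SE 0.18, adjusted p = 8.1e-08). The gene of stanniocalcin 1, Stc1, whose product is a secreted glycoprotein hormone, rose 60.6-fold, from 0.993, 1.08 and 0.328 to 44.6, 47.3 and 53.9 CPM (log2 fold change 5.96, SE 0.27, adjusted p = 1.9e-06). Every knockout library was far above every untransformed library for these 3 genes. Mmp13, an interstitial collagenase, stood at 18.2, 17.8 and 17.6 CPM in untransformed cells and at 310.2, 487 and 449 CPM in knockout cells, a 23.2-fold rise (log2 fold change 4.56, SE 0.17, adjusted p = 5.1e-07). Serpinb2, an inhibitor of plasminogen activators, went from 1.7, 1.85 and 0.0596 to 43.1, 35.8 and 38.9 CPM (log2 fold change 5.07, SE 0.64, adjusted p = 0.00294). Its untransformed replicate 3 was lower than the other untransformed libraries, and the groups did not overlap; without it the log2 fold change was 4.47.

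Among the others, Plxna4, a semaphorin receptor subunit, was at 0.39, 0 and 0.238 CPM in untransformed and 9.51, 8.27 and 10.6 CPM in knockout libraries (log2 fold change 5.53, SE 0.48, adjusted p = 5.7e-05; log2 fold change 6.26 without untransformed replicate 1 and 4.93 without replicate 2). Nlrc5, the transactivator of MHC class I genes, rose from 0.248, 0.0618 and 0.358 to 7.25, 7.13 and 7.75 CPM (log2 fold change 5.04, SE 0.34, adjusted p = 1.1e-05). Arap3, a GTPase-activating protein for small GTPases, rose 31.6-fold, from 2.98, 2.32 and 5.66 to 113, 114 and 119.9 CPM. Separation between groups was a condition of the choice for these 3 and for the rest. Tnc, the matrix glycoprotein tenascin C, rose 26.4-fold to 5.48, 4.34 and 5.75 CPM. Csn3, a milk protein gene, rose 22.5-fold to 22.1, 21.1 and 20.4 CPM, and Dynap, which encodes a dynactin-associated membrane protein, 20.3-fold to 13.3, 11 and 14.3 CPM. Slc35f1, a solute carrier gene, rose 17.6-fold to 5.62, 5.61 and 6.45 CPM. The 12 log2 fold changes ran from 4.16 upward, and each call held with any 1 library left out.

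**Figure D2:**
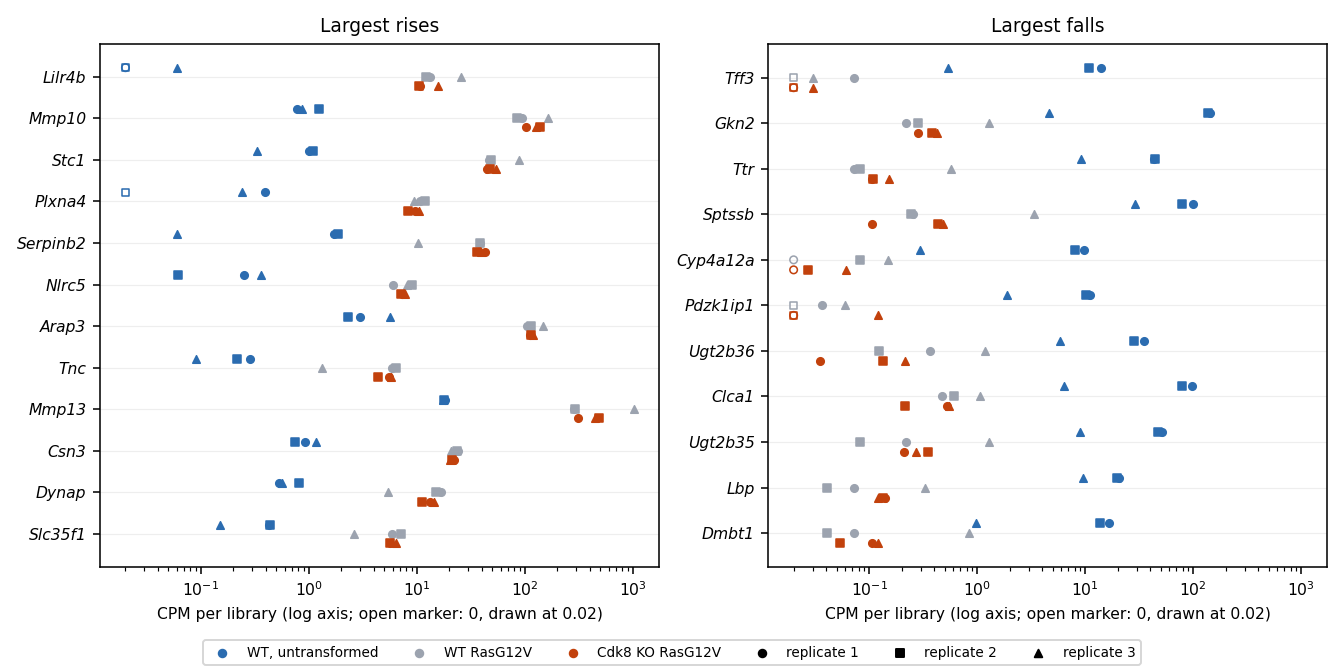
CPM per library (log axis) of the 12 largest rises, left, and 11 of the 12 largest falls, right, with colours for untransformed, WT RasG12V and knockout libraries, symbols for replicates and open markers for libraries with no count. Every knockout library lies apart from every untransformed one, as the choice of genes required. Among the falls, untransformed replicate 3 lies between its group and the knockout libraries, as for Gkn2 at 4.68 CPM.

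The 250 bases before the annotated start of the 3 rising genes whose window held an AP-1 motif are printed because AP-1 is the factor family through which the ERK pathway is known to act on collagenase and stromelysin genes. They come from RefSeq on GRCm38.p6, all on the plus strand: Mmp10 at chr9:7502092-7502341, Serpinb2 at chr1:107511173-107511422 and Mmp13 at chr9:7272264-7272513. Capitals mark the match to TGANTCA.
Mmp10: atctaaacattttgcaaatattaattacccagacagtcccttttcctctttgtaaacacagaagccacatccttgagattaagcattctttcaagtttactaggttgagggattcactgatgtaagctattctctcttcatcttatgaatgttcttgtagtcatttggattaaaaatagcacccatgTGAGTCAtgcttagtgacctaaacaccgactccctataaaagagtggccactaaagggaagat
Serpinb2: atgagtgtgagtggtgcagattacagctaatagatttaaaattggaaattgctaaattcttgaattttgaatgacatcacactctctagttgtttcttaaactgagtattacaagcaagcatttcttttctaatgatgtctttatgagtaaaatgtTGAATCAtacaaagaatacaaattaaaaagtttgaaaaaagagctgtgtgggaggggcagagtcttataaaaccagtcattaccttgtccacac
Mmp13: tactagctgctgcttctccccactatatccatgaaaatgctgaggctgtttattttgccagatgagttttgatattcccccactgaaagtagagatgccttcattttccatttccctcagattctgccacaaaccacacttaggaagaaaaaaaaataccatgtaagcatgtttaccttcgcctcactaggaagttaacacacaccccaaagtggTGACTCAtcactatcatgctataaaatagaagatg
The matches began at base -63 of Mmp10, -94 of Serpinb2 and -35 of Mmp13, counted from the start site. Of the 12 largest rises, 6 had a window in the RefSeq promoter table (250 bases before to 50 after a start), and 3 of the 6 held the motif on either strand. Of the 12 largest falls, 5 had a window and 1 held it, Ugt2b35 at base -246. The motif occurred in 2564 of all 32817 windows (7.81%).

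Over the whole comparison, the share of genes with TGANTCA in at least 1 window was 6.47% of 9814 tested genes with a window. It was 10.1% of the 1340 called higher, 8.96% of the 1362 called lower and 5.31% of the 7112 with no call. Among genes changed by at least 3 on the log2 scale, 20 of 84 rises (23.8%) and 17 of 96 falls (17.7%) held it. The ETS motif CCGGAAG had the reverse order, with 23.6% of genes with no call, 13.4% of those higher and 14.3% of those lower. It was in 2.38% of the large rises and 3.12% of the large falls. The HNF4 half-site CAAAGTCC was in 1.68% of tested genes and in 7 of the 96 large falls (7.29%), against 1 of the 84 large rises (1.19%). Both strands were searched, none of the 3 motifs holds another, and the shares are descriptions of these letters in these windows, with no test.

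The 12 largest falls were also chosen among called genes without overlap. They included members of the hepatocyte list (Ttr and Lbp) and of the stomach and gut list (Gkn2, Tff3, Clca1 and Dmbt1). Ttr, the thyroxine and retinol carrier made by hepatocytes, fell 265-fold, from 43.6, 44.5 and 9.09 to 0.106, 0.108 and 0.152 CPM (log2 fold change -7.98, SE 1.01, adjusted p = 0.00316). Lbp, the plasma protein that binds bacterial lipopolysaccharide, fell 125-fold, from 20.5, 19.8 and 9.51 to 0.141, 0.136 and 0.122 CPM (log2 fold change -6.90, SE 0.41, adjusted p = 6.5e-06). Sptssb, a small subunit of serine palmitoyltransferase, fell from 99.5, 78.6 and 29.2 to 0.106, 0.434 and 0.486 CPM (log2 fold change -7.56, SE 0.73, adjusted p = 0.00114). The groups were separated for all 3 genes, and untransformed replicate 3 was the lowest of its group in each. Pdzk1ip1, a small membrane protein gene, fell 189.7-fold, from 11, 10.2 and 1.91 to 0, 0 and 0.122 CPM. It had 703 counts over the untransformed libraries and 4 over the knockout libraries, which all came from replicate 3. With 1 library left out, its log2 fold change ran from -10.93 to -6.77, the latter without knockout replicate 2. Ugt2b36 and Ugt2b35, which encode UDP-glucuronosyltransferases, fell 182-fold and 128-fold. Multi-mapping reads did not enter the counts, so values of such families of near copies are uncertain.

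The remaining falls depended on the library set. Gkn2, a gastrokine of the stomach lining, stood at 144, 139 and 4.68 CPM in untransformed and 0.283, 0.38 and 0.426 CPM in knockout libraries (log2 fold change -7.99, SE 1.83, adjusted p = 0.0368). Tff3, a trefoil peptide of mucus, stood at 14, 10.8 and 0.536 CPM in untransformed libraries and had 1 count over the knockout libraries against 761, a ratio of 793 (counting interval 142 to 31360). For both genes untransformed replicate 3 was far below the other 2 untransformed libraries and still above every knockout library. Clca1, a secreted goblet cell protein, stood at 97.5, 79.2 and 6.32 and 0.53, 0.217 and 0.547 CPM. Cyp4a12a, a fatty acid hydroxylase, had 547 counts against 3, a ratio of 190 (counting interval 64.7 to 924). The calls of Gkn2, Tff3, Clca1 and Cyp4a12a were lost when untransformed replicate 1 or 2 or any knockout library was left out, and that of Dmbt1, a mucosal scavenger receptor (log2 fold change -6.73, SE 1.44, adjusted p = 0.0215), without untransformed replicate 1 or 2 or knockout replicate 1 or 3. Without untransformed replicate 3 the log2 fold changes were -8.56 for Gkn2, -7.69 for Clca1 and -7.28 for Dmbt1.

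Mmp13 and Hras were also among the genes of at least 200 CPM with the largest changes. Sh3kbp1, an adaptor in the endocytosis of growth factor receptors, rose from 47.8, 51.6 and 43.9 to 224, 221 and 229.9 CPM (log2 fold change 2.26, SE 0.081, adjusted p = 5.0e-07). F2r, the thrombin receptor, rose from 234, 224 and 392 to 908, 861 and 978 CPM (log2 fold change 1.71, SE 0.21, adjusted p = 0.000577), and Plat, tissue plasminogen activator, from 165, 147 and 115 to 424, 396 and 440.4 CPM (log2 fold change 1.58, SE 0.12, adjusted p = 2.4e-05). None of the 3 overlapped between groups, which the choice of these genes required. Bicc1, an RNA-binding protein of bile duct and kidney tubule development, fell 11.8-fold, from 821, 768 and 870.4 to 64.3, 70.7 and 72.7 CPM (log2 fold change -3.54, SE 0.095, adjusted p = 8.1e-08). Lgals4, a galectin of gut epithelium, fell 17.3-fold, from 286, 272 and 218 to 12.8, 17 and 15.1 CPM (log2 fold change -4.08, SE 0.14, adjusted p = 5.0e-07). Gsta4, a glutathione transferase, fell from 1232, 1196 and 586 to 121, 177 and 173 CPM. Both Gsta4 and Ugt2b34 (678, 634 and 190.0 to 40.7, 45.5 and 43.8 CPM) were lowest in untransformed replicate 3 within their group. Spp1, osteopontin, rose from 80.1, 75.3 and 228 to 583, 854 and 850.1 CPM (5.97-fold, adjusted p = 0.0164), a call lost without untransformed replicate 1 or 2. Untransformed replicate 3 was the highest of its group, and without it the log2 fold change of Spp1 was 3.31.

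Genes of the Ras and ERK cascade moved little apart from Hras, and in both directions, with 4 higher and 4 lower of 25 tested (of 26 on the list; Rasgrp1 was too low) and a median log2 difference of 0.04. The shares over all genes were 13.3% higher and 13.1% lower. Mras, a Ras family member, fell (-1.07, SE 0.21), and Rgl1, an exchange factor for Ral, rose from 36.8, 37.2 and 39.5 to 54.1, 57.3 and 61.5 CPM (log2 fold change 0.63, SE 0.083, adjusted p = 0.000517). Rasal2, a Ras GTPase-activating protein, also rose (0.48, SE 0.093). Map2k1, the MEK1 gene, was called higher (0.33, SE 0.077; lost without knockout replicate 3), and Rras2 and Ksr1 were called lower (lost without knockout replicate 2, and in part without others). Nras, Braf and Mapk3 had no call, with log2 differences of 0.30, -0.026 and 0.001. Without untransformed replicate 3, 9 of the genes were higher and 4 lower, and without knockout replicate 2 only 2 were lower.

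ERK output and feedback genes were mostly higher: 11 of 19 tested (of 20; Etv1 was too low) were higher and 2 lower, with a median log2 difference of 0.53 beside 0.0032 over all genes. Dusp5, a nuclear ERK phosphatase, rose from 39.8, 43.8 and 29.4 to 112, 103 and 122 CPM (log2 fold change 1.60, SE 0.14, adjusted p = 4.3e-05). Dusp6, the cytoplasmic ERK phosphatase, rose from 390.5, 395 and 509 to 706, 743 and 682 CPM (log2 fold change 0.74, SE 0.11, adjusted p = 0.00116), and Dusp7 from 19.2, 18.6 and 17.1 to 36.9, 37.4 and 33.5 CPM (log2 fold change 1.00, SE 0.092, adjusted p = 5.9e-05). Untransformed and knockout libraries were separated for all 3 phosphatases. Spry2, a Sprouty feedback inhibitor of receptor signalling, rose from 48.9, 40.4 and 41.4 to 107, 86.3 and 110.4 CPM (log2 fold change 1.24, SE 0.12, adjusted p = 5.9e-05). Spred3 and Spred2, related inhibitors, rose by 1.36 and 0.44 on the log2 scale, and the ETS factors Etv5 and Etv4 by 0.96 and 0.83. Ier3, an early response gene, rose by 0.92.

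The exceptions were Spry1, another Sprouty gene, which was lower at 10.2, 10.1 and 11.9 against 16.5, 13.8 and 22.7 CPM (lost without knockout replicate 1 or 2), and Il1rl1, the interleukin 33 receptor (-1.45, SE 0.25). Emp1, an epithelial membrane protein, was called higher (log2 fold change 0.31, SE 0.10, adjusted p = 0.0476) only with all 6 libraries or without untransformed replicate 3. Dusp4, Spry4, Spred1, Phlda1, Epha2 and Ccnd1 had no call, with log2 differences between 0.097 and 0.53. Leaving out 1 library gave 10 to 14 higher members. The number of lower members was 1 without knockout replicate 1 or 2.

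**Figure D3:**
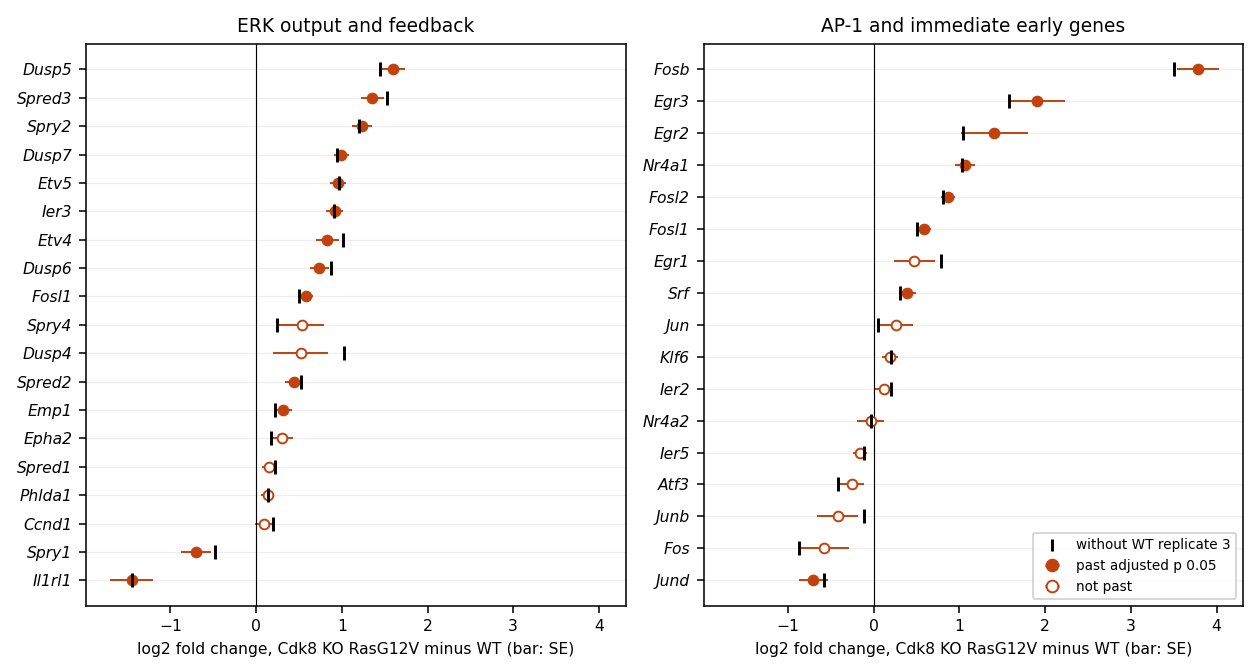
Log2 fold change of knockout over untransformed cells for each tested ERK output gene, left, and AP-1 or immediate early gene, right; bars are SE, filled points passed an adjusted p of 0.05 and black ticks give the fit without untransformed replicate 3. Dusp5 lies highest among the ERK genes at 1.60 and Fosb among the others at 3.78, while Spry1, Il1rl1 and Jund are the filled points below 0.

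AP-1 and immediate early genes changed member by member, with 7 higher and 1 lower of 17 tested (of 22; Batf, Batf3, Egr4, Nr4a3 and Arc were too low) and a median log2 difference of 0.26. Fosb, a Fos family member, rose from 0.851, 0.927 and 0.447 to 11.3, 9 and 9.82 CPM (log2 fold change 3.78, SE 0.24, adjusted p = 7.9e-06). Fosl1, which encodes the Fra-1 protein known to accumulate downstream of ERK, rose from 90.2, 95.5 and 79.4 to 136, 125 and 129.7 CPM (log2 fold change 0.58, SE 0.085, adjusted p = 0.000884), and Fosl2 from 82.9, 77.1 and 71.1 to 142, 131 and 143 CPM (log2 fold change 0.87, SE 0.081, adjusted p = 6.1e-05). In each of the 3 genes the groups were apart. Nr4a1 and Egr3, transcription factors of the immediate early response, rose by 1.07 and 1.91 (SE 0.12 and 0.33). Jund, the sole fall, went from 23, 30.3 and 34.5 to 20.8, 18.1 and 14.3 CPM (log2 fold change -0.70, SE 0.17, adjusted p = 0.0148), a call lost without knockout replicate 2 or 3. The calls of Srf and Egr2 (0.39, SE 0.098 and 1.41, SE 0.39) were lost without any 1 knockout library. Fos, Jun, Junb and Egr1 had no call, with log2 differences of -0.57, 0.26, -0.42 and 0.47. Without untransformed replicate 3, 9 of the 17 were higher and 3 lower, and 10 were higher when members tested only in that fit are counted.

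Ligands and receptors of the EGF family were divided, with 2 higher and 3 lower of 11 tested (of 14; Epgn, Nrg4 and Erbb4 were too low). Errfi1, the feedback inhibitor Mig-6 of the EGF receptor, rose from 116, 112 and 78.3 to 235, 227 and 240.2 CPM (log2 fold change 1.22, SE 0.13, adjusted p = 0.000165). Erbb3, a co-receptor for neuregulin, fell from 10.2, 9.77 and 9.45 to 2.33, 2.55 and 2.19 CPM (log2 fold change -2.03, SE 0.14, adjusted p = 1.1e-05). Nrg1, the neuregulin ligand, fell from 94.8, 94.8 and 91.8 to 59.8, 50.9 and 60.0 CPM (log2 fold change -0.70, SE 0.085, adjusted p = 0.000298). The groups did not overlap in any of the 3. Erbb2 also fell (-0.42, SE 0.089), and Hbegf, a ligand of the EGF receptor, was called higher (0.47, SE 0.14; lost without any 1 knockout library, which left 1 higher member, against 4 without untransformed replicate 3). Egfr itself had no call, at -0.21.

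Secreted proteases rose beyond Mmp10 and Mmp13: 7 of 18 tested proteases and inhibitors were higher and 2 lower (of 22; Mmp2, Mmp7, Mmp9 and Mmp12 were too low), with a median log2 difference of 0.19. Ctsl, cathepsin L, rose from 699, 832 and 730.3 to 2044, 2312 and 2004 CPM (log2 fold change 1.51, SE 0.10, adjusted p = 1.1e-05), and Ctsb, cathepsin B, from 322, 311 and 288 to 469.5, 506 and 484 CPM (log2 fold change 0.69, SE 0.078, adjusted p = 0.000201). Mmp3, stromelysin 1, rose from 0.106, 0.247 and 0.119 to 1.63, 2.79 and 2.16 CPM (log2 fold change 3.78, SE 0.38, adjusted p = 9.3e-05). Plau, urokinase, rose by 0.54 (SE 0.10), and Timp2, an inhibitor of metalloproteinases, fell from 682, 644 and 587 to 408, 424 and 443 CPM (log2 fold change -0.56, SE 0.084, adjusted p = 0.00101). These 5 genes were separated between groups. Adamts1 was the other fall, at 4.97, 3.83 and 0.387 against 0.141, 0.352 and 0.304 CPM; it was called only with all 6 libraries or without untransformed replicate 3, where 5 members were lower, against 1 without any other single library. Mmp14, Timp1 and Plaur had no call (0.022, 0.25 and -0.14).

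Of 19 tested collagens, laminins and matrix glycoproteins (of 26), 6 were higher and 4 lower, with a median of 0.27. Lamb1, a laminin chain of most basement membranes, rose from 162, 167 and 214 to 408, 329.7 and 404 CPM (log2 fold change 1.09, SE 0.13, adjusted p = 0.000261), while Lamb3, a chain of the epithelial laminin 332, fell from 31.6, 30.8 and 34.2 to 7, 6.34 and 6.42 CPM (log2 fold change -2.27, SE 0.10, adjusted p = 1.2e-06). Neither overlapped between groups. Thbs1, thrombospondin 1, rose from 13, 11.3 and 9.54 to 38.8, 24.3 and 38.5 CPM (log2 fold change 1.61, SE 0.19, adjusted p = 0.000292), and Col4a1 and Col4a2, the chains of basement membrane collagen, rose by 0.51 and 0.45. Sparc, a secreted matrix regulator, fell from 709, 663 and 459 to 321, 365 and 358 CPM (log2 fold change -0.79, SE 0.15, adjusted p = 0.0037), and Col12a1 fell by 2.39 on the log2 scale. Lamc1 was the fourth fall (-0.49, SE 0.12; lost without knockout replicate 1 or 2). Fn1, fibronectin, had no call (0.14), and Col1a1, Col1a2 and Col3a1, the fibrillar collagens, were too low to test.

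The integrins split by subunit, with 5 higher and 4 lower of 13 tested (of 14; Itgb8 was too low). Itga2, Itga3, Itga5 and Itga6, receptor chains for collagen, laminin and fibronectin, rose by 1.06, 0.80, 0.77 and 1.20 on the log2 scale. Itga6 stood at 231, 238 and 214 CPM in untransformed and 518, 493 and 534 CPM in knockout libraries (SE 0.079, adjusted p = 8.8e-06). Its hemidesmosome partner Itgb4 fell from 353, 322 and 316 to 159, 158 and 182 CPM (log2 fold change -0.97, SE 0.086, adjusted p = 4.8e-05). Itgb6, the epithelial chain that activates latent TGF-beta, fell from 13.4, 13.2 and 5.69 to 0.601, 0.813 and 0.851 CPM (log2 fold change -3.79, SE 0.36, adjusted p = 7.9e-05). Itga7, a laminin receptor chain, fell from 135, 123 and 109 to 28.2, 33.5 and 34.5 CPM (log2 fold change -1.91, SE 0.11, adjusted p = 3.6e-06). The 9 called integrins all had separated groups, as had 1841 of the 1851 genes called higher and 1821 of the 1833 called lower. Itgb1, the common beta chain, had a difference of 0.007 with no call.

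Epithelial junction and identity genes were mostly lower: 11 of 15 tested fell and 1 rose (of 24; 9, among them Epcam and 5 claudins, were too low), with a median log2 difference of -0.61. Cdh1, E-cadherin, fell from 574, 543 and 506 to 208, 240.3 and 247 CPM (log2 fold change -1.20, SE 0.092, adjusted p = 2.1e-05). Crb3, a polarity protein, fell from 8.23, 7.7 and 8.4 to 2.33, 2.36 and 2.01 CPM (log2 fold change -1.84, SE 0.15, adjusted p = 2.8e-05), and Tjp1, the tight junction scaffold ZO-1, from 550.2, 573 and 586 to 353, 327 and 371 CPM (log2 fold change -0.68, SE 0.081, adjusted p = 0.000268). No knockout library reached the untransformed range in these 3 genes. Dsp, desmoplakin, fell by 0.61, Ocln, occludin, by 1.35, Marveld2 by 1.61, Tjp3 by 1.86 and Cldn2 by 0.72 on the log2 scale. The calls of Krt8, Krt18 and Esrp2 (-0.46, -0.39 and -0.35) were lost when most single libraries were left out, which gave 8 to 11 lower members. Grhl2, an epithelial transcription factor near the detection limit, was the rise (2.11, SE 0.49; lost without knockout replicate 2).

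Among 8 tested genes of mesenchymal cells and epithelial-mesenchymal transition (of 16; Snai1, Twist1, Acta2 and others were too low), 4 were higher and none lower, with a median of 0.25. Zeb2, a repressor of E-cadherin, rose from 9.69, 10.6 and 9.33 to 28, 24.4 and 26.6 CPM (log2 fold change 1.44, SE 0.10, adjusted p = 1.5e-05). Its libraries were separated, and it was the one call that held with any single library left out. Snai2, Loxl2 and Vim stood at log2 differences of 0.72, 0.38 and 0.28; their calls were lost without knockout replicate 1 or 3, which left 1 higher member. Summed stellate cell and fibroblast markers were also higher in the knockout libraries (1.84 to 2.37 against 0.532 to 1.13 CPM), largely from Pdgfra. The other 11 of these 12 markers were too low to test. The part of such cells in these calls was not tested. Zeb1, Cdh2, Axl and S100a4 had no call (0.21, -0.26, -0.093 and -0.14).

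Hepatocyte genes fell in 10 of 18 tested members and rose in 2 (of 29; 11, among them Apoa2, Fga, Hp and Cps1, were too low), with a median log2 difference of -0.46. Besides Ttr and Lbp, Apoa1, the main protein of high-density lipoprotein, fell from 14.8, 15.9 and 8.64 to 0.212, 0.244 and 0.426 CPM (log2 fold change -5.43, SE 0.33, adjusted p = 6.3e-06). Apob fell from 966, 1132 and 1057 to 536, 378 and 578 CPM (log2 fold change -1.06, SE 0.15, adjusted p = 0.0008). Alb had 281 counts over the untransformed libraries against 1, a ratio of 293 (counting interval 52.1 to 11610). These 3 genes, which encode secreted plasma proteins, did not overlap between groups. Rbp4, the retinol carrier, fell from 468, 449 and 524 to 280.1, 329.5 and 317 CPM (log2 fold change -0.62, SE 0.095, adjusted p = 0.00117), and Foxa3, Onecut1 and Fgb also fell.

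The rises were Foxa1, a forkhead factor of endoderm, from 9.19, 9.4 and 11.1 to 25.8, 24.6 and 24.1 CPM (log2 fold change 1.35, SE 0.11, adjusted p = 2.5e-05), and Afp, the fetal liver protein alpha-fetoprotein, from 11.3, 11.4 and 7.09 to 19.3, 21.7 and 20.5 CPM (log2 fold change 1.07, SE 0.17, adjusted p = 0.00136). Both were higher in every knockout library than in any untransformed library. Hnf4a was called lower (log2 fold change -0.30, SE 0.084, adjusted p = 0.0247), a call lost when any library but untransformed replicate 3 was left out. Foxa2 and Cebpa had no call (-0.13 and -0.11).

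Of 15 tested biliary and progenitor genes (of 20), 1 was higher and 5 lower. Krt7, a duct keratin, fell from 526, 527 and 463 to 171, 185 and 168 CPM (log2 fold change -1.51, SE 0.084, adjusted p = 3.5e-06). Pkhd1, the fibrocystin gene, fell from 27.4, 25.4 and 34 to 14.5, 12.7 and 15 CPM (log2 fold change -1.02, SE 0.13, adjusted p = 0.000403). Both were apart between groups, as was Bicc1, and Cftr, a chloride channel of duct cells, fell by 2.12. Krt19 and Sox9 had no call (0.045 and 0.41). The higher member was Spp1, and 0 were higher without untransformed replicate 2, against 2 without untransformed replicate 3.

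Counts of stomach and gut mucosa genes depended on untransformed replicate 3. With all 6 libraries 8 of 17 tested (of 26) were lower and none higher, with a median log2 difference of -0.93. Within the untransformed group, replicate 3 differed from the mean of replicates 1 and 2 by a median of -1.06 on the log2 scale over these genes. Vsig1, a junction protein of stomach epithelium, fell from 255, 237 and 292 to 142, 180.2 and 192 CPM (log2 fold change -0.59, SE 0.12, adjusted p = 0.00655), and Lgals4 fell as given above. Vil1, villin, stood at 338, 312 and 103 and 30.2, 40.8 and 44.1 CPM (log2 fold change -2.69, SE 0.49, adjusted p = 0.0122); its call was lost without untransformed replicate 1 or 2 or knockout replicate 1. In none of these 3 genes did a knockout library reach an untransformed one. Gkn1 stood at 16.1, 15.7 and 0.656 and 0.212, 0.163 and 0.0912 CPM. The fit without untransformed replicate 3 called 13 of these 17 lower and 2 higher, and 17 members lower when those tested only in that fit are counted. The fits without untransformed replicate 1 or 2 or knockout replicate 1 called 2, and those without knockout replicate 2 and 3 called 4 and 3. Cldn18, Anxa10 and Ctse had no call (-0.46, -0.13 and -0.91).

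Proliferation genes moved by small amounts. Of 28 tested genes of DNA replication, 5 were lower and none higher, with a median of -0.10. Mcm6, a subunit of the replicative helicase, fell from 286, 310.0 and 253 to 210.4, 215 and 207 CPM (log2 fold change -0.40, SE 0.086, adjusted p = 0.0073), and Rfc3, of the clamp loader, from 61.7, 64.1 and 53.9 to 43.6, 46.8 and 43.4 CPM (log2 fold change -0.40, SE 0.088, adjusted p = 0.00786). The groups did not overlap in either gene. The calls of Lig1, Cdt1 and Fen1 were lost without knockout replicate 2 and, for Cdt1 and Fen1, without others. Without untransformed replicate 3, 18 members were lower; without untransformed replicate 1, knockout replicate 1 or knockout replicate 2, 3, 3 and 2 were. The median log2 difference of untransformed replicate 3 from the other untransformed libraries was -0.32 over these genes.

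Of 25 mitosis genes, 2 were higher and none lower, beside 13.3% and 13.1% of all genes. Bub1, a spindle checkpoint kinase, rose from 173, 189 and 175 to 246, 238 and 246 CPM (log2 fold change 0.47, SE 0.072, adjusted p = 0.00118), with separated groups. Cenpe was called at 0.32, lost without untransformed replicate 1 or 2 or knockout replicate 1 or 3, and 1 member was higher without untransformed replicate 1 or knockout replicate 1 or 3. Without untransformed replicate 3, 6 were higher and 3 lower. Of the CDK inhibitors and D cyclins, 2 of 12 were higher and 3 lower. Ccnd2, cyclin D2, fell from 1999, 1774 and 1459 to 841, 908 and 1013 CPM (log2 fold change -0.90, SE 0.12, adjusted p = 0.000679), and Cdkn1b, the p27 inhibitor, from 74.4, 74 and 82.8 to 60.7, 60.4 and 56.2 CPM (log2 fold change -0.36, SE 0.081, adjusted p = 0.00882). Cdkn1c, the p57 inhibitor, rose from 0.0709, 0.185 and 0.238 to 1.8, 1.65 and 1.06 CPM (log2 fold change 3.15, SE 0.40, adjusted p = 0.000425). All 3 had separated groups, whereas Cdkn1a and Cdkn2a, which encode p21 and the p16 and p19 proteins, had no call (0.094 and 0.37). Cdkn2b was called higher at 0.49, lost without untransformed replicate 1 or 2 or knockout replicate 1 or 2, which left 1 higher member, against 4 without untransformed replicate 3.

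Of 23 tested p53 genes (of 24), 6 were higher and 2 lower, beside 13.3% and 13.1% of all genes. Pmaip1, the pro-death protein Noxa, rose from 144, 150.2 and 134 to 259.8, 250.1 and 239 CPM (log2 fold change 0.83, SE 0.075, adjusted p = 5.2e-05), and Perp, a desmosomal p53 target, from 229, 243 and 284 to 329.8, 352 and 321 CPM (log2 fold change 0.43, SE 0.096, adjusted p = 0.00895). Fas, a death receptor, fell from 10.0, 9.8 and 11.7 to 6.05, 6.64 and 5.23 CPM (log2 fold change -0.79, SE 0.14, adjusted p = 0.0027). These 3 were separated between groups. The calls of Mdm2, Rrm2b and Trp53 (0.36, 0.46 and 0.23) were lost without knockout replicate 1, which left 3 higher members, and in part without others. Among 24 MYC and ribosome biogenesis genes, 4 were higher and 2 lower, with Mycn falling from 2.98, 2.1 and 3.67 to 0.53, 0.352 and 0.243 CPM (log2 fold change -2.94, SE 0.34, adjusted p = 0.000211) and Cad, a pyrimidine synthesis enzyme, rising from 252, 254 and 222 to 376, 309 and 356 CPM (log2 fold change 0.54, SE 0.096, adjusted p = 0.0027). Both were separated. Myc itself had no call (0.27), and the calls of Mxi1 and Mycl were lost without knockout replicate 2, which left 2 higher members. Mxd1 was called lower (-0.87), lost without any library but untransformed replicate 3, which left 1 lower member without untransformed replicate 1 or any knockout library.

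Glycolysis and hypoxia genes were mostly higher: 15 of 25 tested were higher and 2 lower (of 29; Slc2a3, Eno2, Slc16a3 and Adm were too low), with a median log2 difference of 0.60. Pdk1, the kinase that holds back pyruvate dehydrogenase, rose from 26.4, 24.3 and 28.6 to 57.7, 65.2 and 65 CPM (log2 fold change 1.26, SE 0.095, adjusted p = 1.7e-05). Pfkl, liver phosphofructokinase, rose from 203, 195 and 209 to 368, 381 and 363 CPM (log2 fold change 0.89, SE 0.072, adjusted p = 2.7e-05), and Hk1, a hexokinase, from 216, 200.5 and 192 to 341, 347 and 353 CPM (log2 fold change 0.80, SE 0.074, adjusted p = 6.2e-05). The 3 untransformed libraries lay within a narrow band below all 3 knockout libraries in each. Tpi1, triose phosphate isomerase, rose from 507, 510.4 and 517 to 847, 914 and 801 CPM (log2 fold change 0.76, SE 0.082, adjusted p = 0.000145), and Ldha, lactate dehydrogenase A, from 659, 686 and 549 to 1076, 1230.5 and 1110.5 CPM (log2 fold change 0.87, SE 0.10, adjusted p = 0.000273). Bnip3, a mitophagy receptor and hypoxia target, rose from 4.15, 4.79 and 7.18 to 16.9, 20.7 and 16.4 CPM (log2 fold change 1.76, SE 0.20, adjusted p = 0.00021).

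Hk2, Pfkp, Aldoa, Eno1, Pgam1 and Slc2a1, the glucose transporter GLUT1, rose by 0.71, 1.49, 0.60, 0.52, 0.67 and 0.41 on the log2 scale. Egln3, an oxygen-sensing prolyl hydroxylase, rose from 5.53, 6.52 and 6.68 to 11.7, 14.7 and 12.4 CPM. Ndrg1, a gene known to be induced by hypoxia, went the other way, from 289, 257 and 155 to 28, 45.1 and 43.1 CPM (log2 fold change -2.57, SE 0.27, adjusted p = 0.000591), and its groups were apart. Pgk1 was called lower (-0.35), a call lost when any library but untransformed replicate 3 was left out. Vegfa, Car9 and Pfkfb3 had no call (-0.038, -0.72 and -0.022). With 1 library left out, 13 to 18 were higher.

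**Figure D4:**
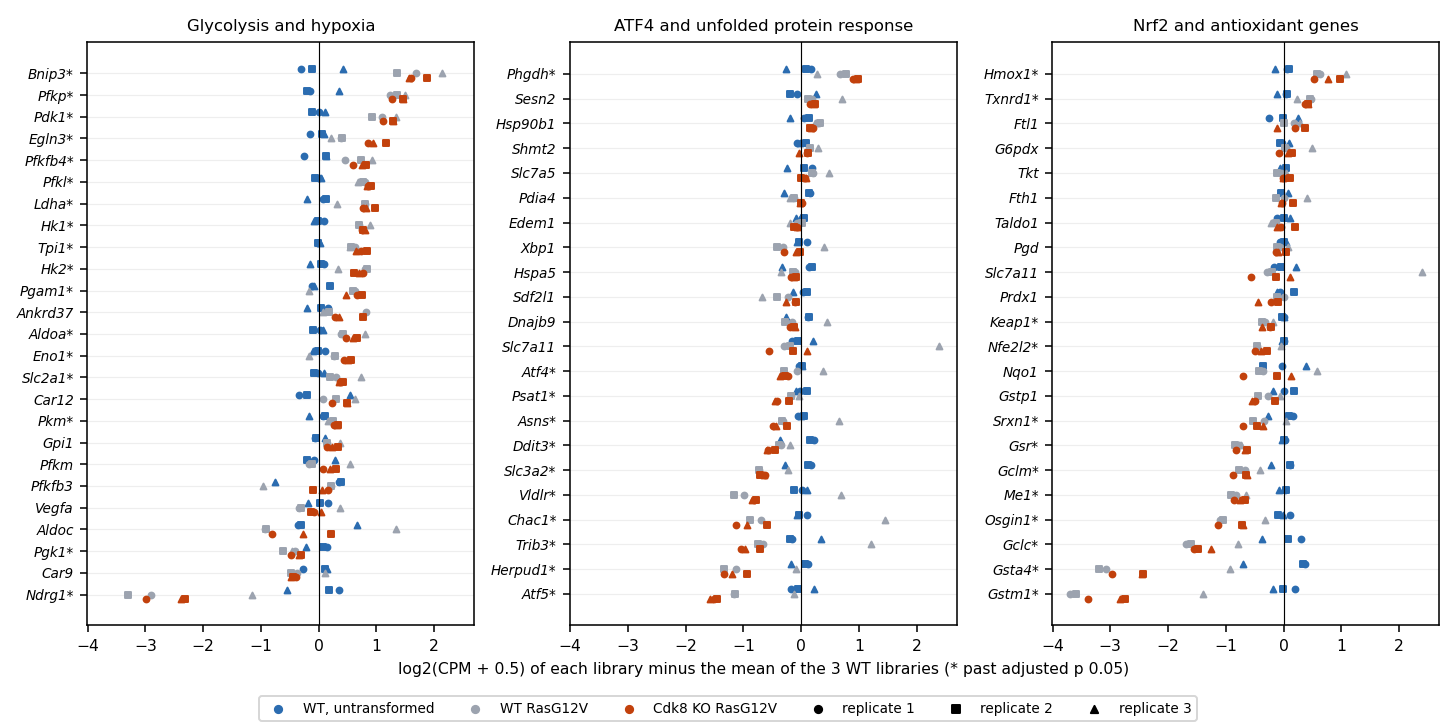
Difference of each library from the mean of the 3 untransformed libraries, as log2(CPM + 0.5), for glycolysis and hypoxia, ATF4 and unfolded protein response, and Nrf2 and antioxidant genes; colours mark untransformed, WT RasG12V and knockout libraries, symbols mark replicates and asterisks genes past an adjusted p of 0.05. Most glycolysis genes with an asterisk lie to the right in all 3 knockout libraries, and Gclc, Gstm1 and Atf5 lie to the left of every untransformed library.

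Of 27 genes of cholesterol and fatty acid synthesis, 9 were higher and 1 lower, with a median of 0.27. Elovl6, a fatty acid elongase, rose from 85.5, 81.9 and 96.8 to 129.9, 133 and 134 CPM (log2 fold change 0.61, SE 0.082, adjusted p = 0.000561), and Acly, which makes cytosolic acetyl-CoA, from 445, 448 and 464 to 599.9, 617 and 634 CPM (log2 fold change 0.47, SE 0.074, adjusted p = 0.00139). Both were separated by group. Srebf1, a regulator of lipid synthesis, was the lower one (log2 fold change -0.48, SE 0.11, adjusted p = 0.00877; lost without knockout replicate 2). The count of higher members was 5 without knockout replicate 1 or 3 and 19 without untransformed replicate 3, which lay a median of 0.27 above the other untransformed libraries.

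Genes of the ATF4 and unfolded protein responses fell in 10 of 22 members and rose in 1, with a median of -0.15. Atf5, a transcription factor of the integrated stress response, fell from 58.2, 63.9 and 77.7 to 22.9, 23.8 and 21.7 CPM (log2 fold change -1.53, SE 0.12, adjusted p = 1.9e-05). Herpud1, a protein of endoplasmic reticulum degradation, fell from 63.7, 61.3 and 51.7 to 22.8, 30.5 and 25.4 CPM (log2 fold change -1.14, SE 0.12, adjusted p = 0.000143), and Slc3a2, an amino acid transporter chain, from 436, 423 and 319 to 252, 238 and 250.2 CPM (log2 fold change -0.65, SE 0.11, adjusted p = 0.00251). Chac1, Trib3 and Vldlr fell by 0.90, 0.96 and 0.81. None of these overlapped between groups. Phgdh, the first enzyme of serine synthesis, was the rise, from 130.0, 122 and 95.3 to 214, 226 and 222 CPM (log2 fold change 0.96, SE 0.11, adjusted p = 0.000194). The calls of Asns, Atf4, Ddit3 and Psat1 were lost without knockout replicate 1 or 3, which left 6 lower members, and 2 members were higher without untransformed replicate 3. Hspa5, Xbp1 and Dnajb9 of the unfolded protein response had no call (-0.12, -0.11 and -0.14).

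Antioxidant genes regulated by Nrf2 were lower in 10 of 22 members and higher in 2, with a median of -0.31. Gclc, the catalytic subunit for glutathione synthesis, fell from 893, 764 and 559.9 to 248, 258 and 304 CPM (log2 fold change -1.43, SE 0.16, adjusted p = 0.000195). Gstm1, a glutathione transferase, fell from 95.4, 83 and 73.6 to 7.53, 12.1 and 11.3 CPM (8.14-fold, adjusted p = 5.0e-06), and Gsr, glutathione reductase, from 356, 356 and 344 to 199.7, 227 and 221 CPM (log2 fold change -0.68, SE 0.077, adjusted p = 0.000194). Every knockout library was below every untransformed library for these genes. Me1, malic enzyme, Osgin1, Gclm and Nfe2l2, the Nrf2 gene itself, fell by 0.74, 0.82, 0.71 and 0.37. Hmox1, heme oxygenase, and Txnrd1, thioredoxin reductase, rose by 0.80 and 0.42. Nqo1 and Slc7a11 had no call (-0.37 and -0.16).

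Genes of the TGF-beta family were lower in 11 of 21 tested members and higher in 2 (of 24), with a median log2 difference of -0.50. Id2, a target of BMP and TGF-beta signals, fell from 933, 991 and 928 to 528, 556 and 536 CPM (log2 fold change -0.80, SE 0.078, adjusted p = 7.9e-05). Tgfbr1, the type I receptor, fell from 114, 108 and 91.1 to 68.8, 63.8 and 75.8 CPM (log2 fold change -0.56, SE 0.10, adjusted p = 0.00271), and the ligand Bmp4 from 5.89, 6.09 and 8.11 to 2.19, 3.15 and 2.65 CPM (log2 fold change -1.30, SE 0.20, adjusted p = 0.00111). The groups were apart in each. Tgfb3 fell by 2.52, Ltbp1, which binds latent TGF-beta, by 0.62, and the feedback genes Pmepa1 and Smad6 by 0.64 and 0.76. Fst, the activin antagonist follistatin, rose from 2.45, 2.6 and 3.46 to 6.96, 7.16 and 7.72 CPM (log2 fold change 1.38, SE 0.17, adjusted p = 0.000368). Tgfb1 was called higher (1.08), lost without untransformed replicate 2 or knockout replicate 1 or 3, which left 1 higher member. Smad7, a target of TGF-beta, had no call.

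In the Wnt pathway 6 of 16 tested were higher and 3 lower (of 27; Axin2, Lef1 and others were too low). Wnt5a, a non-canonical ligand, rose from 4.36, 4.61 and 3.43 to 31.6, 30.4 and 36.3 CPM (log2 fold change 3.01, SE 0.14, adjusted p = 1.2e-06), and Apcdd1, an inhibitor and target of Wnt signals, from 58.8, 54.1 and 41.8 to 176, 174 and 201 CPM (log2 fold change 1.85, SE 0.12, adjusted p = 1.0e-05). The ligand Wnt7b fell from 16.3, 15.9 and 16.3 to 3, 3.9 and 3.35 CPM (log2 fold change -2.21, SE 0.13, adjusted p = 5.0e-06). Wnt4 fell from 4.58, 4.33 and 2.59 to 0.177, 0.271 and 0.182 CPM (log2 fold change -4.12, SE 0.33, adjusted p = 2.7e-05), and none of the 4 genes overlapped between groups. Tcf7, a transcription factor of the pathway, rose by 2.28, and Ctnnb1, beta-catenin, had no call (-0.11). Of 10 tested Notch genes (of 16), 2 were higher and 3 lower. Hey1, a Notch target, fell from 8.41, 9.83 and 13.2 to 3.39, 3.63 and 3.13 CPM (log2 fold change -1.61, SE 0.19, adjusted p = 0.000233), Notch1 fell by 0.81, and Nrarp, a feedback inhibitor, rose from 7.95, 8.35 and 10.6 to 20.7, 21.3 and 18.6 CPM (log2 fold change 1.19, SE 0.13, adjusted p = 0.000185). The call of Notch3 (1.27) was lost without untransformed replicate 1 or knockout replicate 1 or 3, which left 1 higher member.

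Of 25 genes of YAP, TAZ, the TEAD factors and their targets, 7 were lower and 2 higher. Amotl2, an angiomotin family regulator, fell from 503, 521 and 691 to 324, 248 and 264 CPM (log2 fold change -1.02, SE 0.14, adjusted p = 0.000842), and Ajuba, a LIM protein, from 152, 143 and 128 to 87.9, 72.1 and 86.5 CPM (log2 fold change -0.76, SE 0.099, adjusted p = 0.000477). Ankrd1, a cardiac ankyrin repeat gene, fell from 1105, 1207 and 893 to 771, 723 and 697 CPM (log2 fold change -0.53, SE 0.11, adjusted p = 0.00757). All 3 were separated, while Ccn1 and Ccn2, the most used targets, had no call (-0.16 and -0.38). Wwtr1, the TAZ gene, rose by 0.36; the other rise, Dock5, was lost without untransformed replicate 1 or 2 or knockout replicate 1 or 3, leaving 1 higher member, and 6 were higher without untransformed replicate 3.

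In the IGF axis 2 of 14 tested were higher and 5 lower (of 19; Igf1 and Igf2 were too low). Igfbp4 and Igfbp3, which bind IGFs outside the cell, rose from 307, 302 and 354 to 819, 769 and 794 CPM and from 221, 225 and 228 to 377, 392 and 415 CPM. Irs1 and Irs2, adaptors of the insulin and IGF receptors, fell by 1.43 and 1.57 on the log2 scale; Irs1 stood at 48.4, 44 and 36.6 and 16.7, 13.3 and 17 CPM. Igfbp7 fell from 10.9, 9.8 and 11.9 to 1.87, 1.68 and 1.82 CPM (log2 fold change -2.58, SE 0.15, adjusted p = 4.7e-06). Groups were separated in each of these genes. Of 30 tested guidance genes (of 38), 7 were higher and 5 lower, beside 13.3% and 13.1% of all genes. Sema3a, a repulsive semaphorin, rose from 65.5, 69.7 and 70.0 to 144, 129 and 155 CPM (log2 fold change 1.08, SE 0.086, adjusted p = 2.4e-05) and Sema7a, a membrane-anchored semaphorin, by 2.66, while Plxna2, a semaphorin receptor chain, fell by 0.70. The lower count was 11 without untransformed replicate 3 and 3 without any other single library, as the calls of Unc5b and Nrp2 were lost there.

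Of 12 tested genes of MHC class I presentation (of 14), 4 were higher and 2 lower, with a median log2 difference of 0.46. B2m, the common light chain, rose from 204, 211 and 253 to 368, 399 and 347 CPM (log2 fold change 0.76, SE 0.10, adjusted p = 0.000559), and H2-D1, a classical heavy chain, from 37.3, 31.9 and 45.3 to 68.3, 71.6 and 69.9 CPM (log2 fold change 0.90, SE 0.12, adjusted p = 0.000569). Tapbp, the peptide-loading chaperone tapasin, fell from 18.3, 18.8 and 22.6 to 9.16, 10.7 and 9.7 CPM (log2 fold change -0.99, SE 0.12, adjusted p = 0.000329). H2-T23, a non-classical chain, fell by 1.42, and none of the 4 overlapped. The call of H2-K1 (0.83) was lost without untransformed replicate 1 or 2 or knockout replicate 1 or 2. Values of H2 genes are uncertain because near copies share reads.

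Of 14 tested interferon response genes (of 24), 4 were lower and 1 higher. Mx1, an antiviral GTPase, fell from 21.1, 17.3 and 3.07 to 0.141, 0.325 and 0.517 CPM (log2 fold change -5.33, SE 0.95, adjusted p = 0.0109), with untransformed replicate 3 lowest in its group. Ifit2 rose from 18.8, 19.4 and 26.5 to 37.9, 41.3 and 39.7 CPM (log2 fold change 0.90, SE 0.13, adjusted p = 0.001); 3 were higher without untransformed replicate 3. Among 16 tested NF-kB targets and chemokines (of 28), 2 were higher and 6 lower. Ccl20, a chemokine for dendritic and T cells, fell from 53.2, 59.8 and 51.2 to 4.17, 7.59 and 4.38 CPM (log2 fold change -3.31, SE 0.21, adjusted p = 1.1e-05), and Lif, a cytokine of the interleukin 6 family, rose from 34.8, 28.1 and 35.8 to 82.5, 79 and 92.3 CPM (log2 fold change 1.38, SE 0.11, adjusted p = 2.4e-05). Csf2, the cytokine GM-CSF, rose from 0.497, 0.525 and 1.55 to 6.36, 5.72 and 6.54 CPM (log2 fold change 2.85, SE 0.37, adjusted p = 0.000484), whereas Csf1 fell from 74.9, 72.7 and 136 to 43.8, 38.8 and 39.8 CPM. All 4 were apart between groups, with untransformed replicate 3 highest of its group for Csf1 and Csf2; without it the log2 fold change of Csf2 was 3.61. The calls of Nfkbia, Nfkb1 and Tnfaip3 were lost without knockout replicate 1 or 2, which left 3 lower members.

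**Figure D5:**
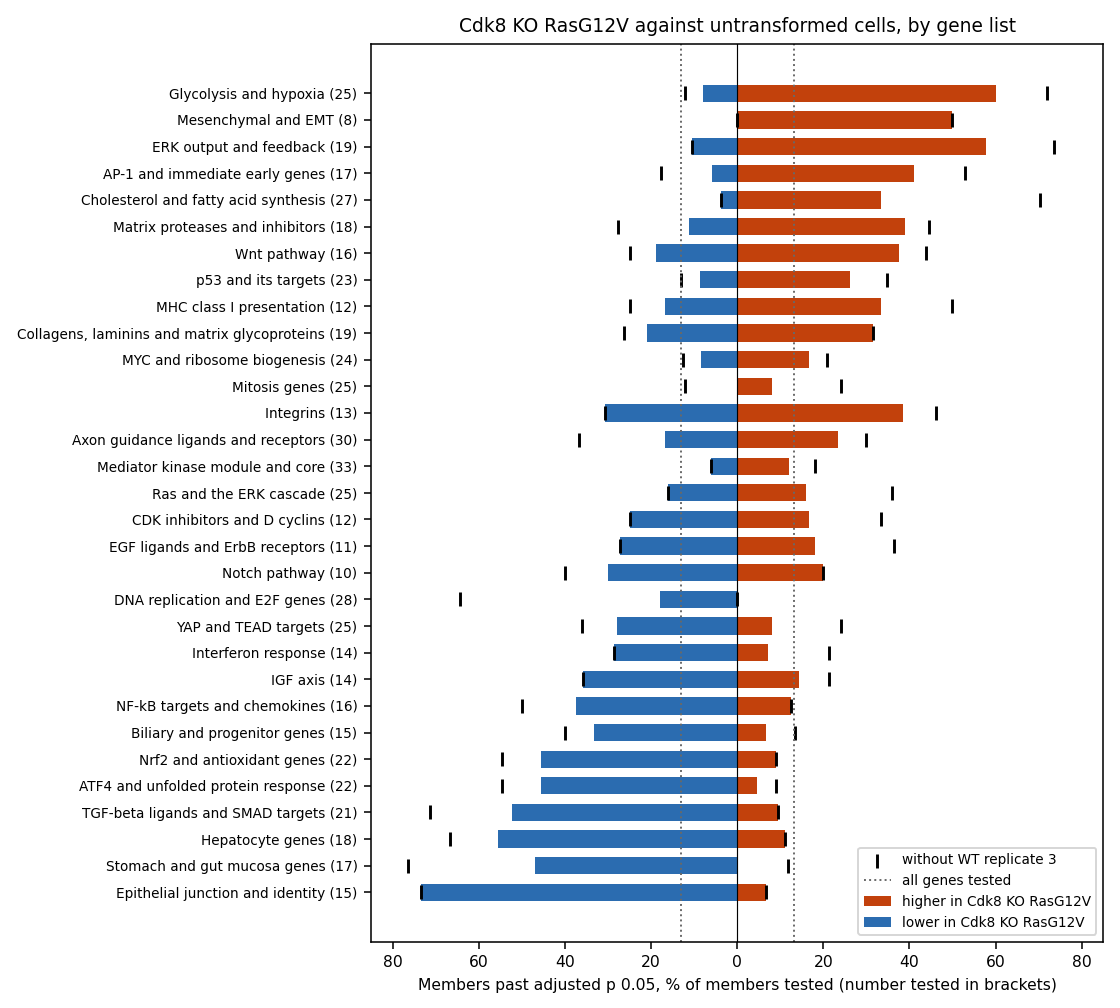
Share of the tested members of each gene list (number tested in brackets) called higher, right, or lower, left, in knockout cells. Dotted lines give the shares over all genes with all 6 libraries, 13.3% and 13.1%. Ticks give the fit without untransformed replicate 3, whose shares over all genes, not drawn, were 21.3% and 20.2%. The longest bar to the right is glycolysis and hypoxia, 15 of 25 members, and the longest to the left epithelial junction genes, 11 of 15.

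The transformed cells that kept Cdk8 show how the knockout cells stood beside WT RasG12V cells. The 2 transformed groups share no library with each other, but both were set against the same untransformed libraries, so only levels and the direct test are given. No gene of 14283 differed between them at an adjusted p under 0.05 with all 12 libraries in the edgeR fit (0% higher or lower). At an unadjusted p under 0.05, 871 did (6.10%), a share slightly above the threshold itself. A fit of the 6 libraries of these groups alone also called none at the adjusted threshold. WT RasG12V replicate 3 stood apart from its group, with a mean chi-square per gene of 86.9 and 80.0 against the others, where those differed by 4.42. Without it, 3 genes were higher in knockout cells and none lower. They were Lgals4, Anxa13 and Ppp2r2b, named here after their values were seen.

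A fit without WT RasG12V replicate 3 and untransformed replicate 3, chosen after seeing the data, called 171 of 14493 genes higher (1.18%) and 60 lower (0.414%) in the knockout cells. Lgals4 stood at 6.88, 7.23 and 54.1 CPM in WT RasG12V and 12.8, 17 and 15.1 CPM in knockout cells; the log2 difference in that fit was 1.10, SE 0.11, adjusted p = 5.5e-05. WT RasG12V replicate 3 was above and its replicates 1 and 2 below all 3 knockout libraries. With all libraries the log2 difference of Lgals4 was -0.619, SE 0.585, adjusted p = 0.904. Cdk8 stood at 56.2, 56.3 and 50.9 CPM in WT RasG12V against 41.3, 43.8 and 43.2 CPM, a log2 difference of -0.35, SE 0.076, adjusted p = 0.415 with all libraries and -0.39, SE 0.068, adjusted p = 0.00659 without both replicates 3. The knockout libraries were all below the WT RasG12V libraries for Cdk8.

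Levels in WT RasG12V cells are given for genes described above and for Scd1 of the fatty acid synthesis list, chosen after its values were seen. Mmp10 was at 94.8, 85.1 and 163 CPM in WT RasG12V libraries (log2 difference of knockout minus WT RasG12V 0.10, SE 0.26, adjusted p = 0.972), and Dusp5 at 102, 102 and 104 CPM (0.13, SE 0.13, adjusted p = 0.905). Fosl1 was at 144, 124 and 112 CPM (0.043, SE 0.10, adjusted p = 0.971), and Pdk1 at 56.8, 50.5 and 68 CPM (0.10, SE 0.12, adjusted p = 0.922). Knockout and WT RasG12V libraries overlapped in all 4 genes, and a p that misses the threshold does not show that levels were equal. Sh3kbp1 was at 272, 273 and 238 CPM, Scd1, a fatty acid desaturase, at 8.05, 8.95 and 22.3 CPM against 13.2, 17.2 and 15.9 CPM in knockout cells, and Atf5 at 29.2, 29.5 and 60.4 CPM against 22.9, 23.8 and 21.7 CPM. Without both replicates 3 these had log2 differences of -0.27, SE 0.06, adjusted p = 0.0298, 0.87, SE 0.12, adjusted p = 0.00117 and -0.36, SE 0.08, adjusted p = 0.0305. Egln3 stood at 8.34, 8.38 and 7.29 CPM, below all knockout libraries (0.64, SE 0.14, adjusted p = 0.0323 without both replicates 3). With all 12 libraries none of these genes passed the threshold. Sh3kbp1 then had a log2 difference of -0.21, SE 0.079, adjusted p = 0.781, and Atf5 of -0.80, SE 0.23, adjusted p = 0.652.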

How the data were processed

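Deposited whole-number gene counts, made by the authors with STAR 2.6.0a on GRCm38.p6 (FastQC for read quality) per the submitters' processing notes, were used from the reverse-strand column, which held 25.4 to 28.9 times the counts of the forward column. The annotation release is not given in the sources used here. Of 54146 gene IDs, 54079 matched GENCODE M21. RNA was rRNA-depleted total RNA per the labels, sequenced on a HiSeq2500. Reads mapping to several places (23.0% to 26.3%) were not counted, and rows that name no gene were left out of library sizes.

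Genes that passed edgeR's filterByExpr at its defaults were tested with edgeR 4.0.16 (R 4.3.3) by a quasi-likelihood test on the 6 libraries, TMM-scaled, with Benjamini-Hochberg adjustment at 0.05. Levels are CPM with TMM factors of all 12 libraries. SE is the log2 fold change divided by the root of F. Alternatives were DESeq2 1.42.0, limma 3.58.1 (voom), other scalings, filters and sample sets. Calculations were tested on simulated data; figures used matplotlib 3.10.9. The comparison, lists and tests were chosen with earlier results of these data known. Named genes were Cdk8, Cdk19 and Hras, the 12 largest rises and falls of at least 5 CPM, the 6 of at least 200 CPM, up to 5 per list by adjusted p, and otherwise were chosen after their values were seen, to account for the lists. The largest changes were taken from called protein-coding genes whose groups did not overlap, with clone and model names left out. Those taken per list by adjusted p were called genes. Single values of some genes are not reported here; they remain in the counts. Counting intervals are exact at 95% and cover counting error only. The labels name no batch.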

Additional observations from a re-analysis of the deposited data

How the results depend on the processing

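Under other scalings, filters, tools and unstranded counts, 1644 to 2362 genes were higher and 1690 to 2141 lower in the knockout cells, against 1851 and 1833. Fits with all 12 libraries gave 1751 and 1739, and with all but WT RasG12V replicate 3 gave 2517 and 2363. With 1 library left out, 1253 to 3045 were higher and 1211 to 2882 lower, the highest without untransformed replicate 3. Without both replicates 3, chosen after seeing the data, 2877 were higher and 3239 lower; the cause was not tested. Against WT RasG12V cells, the counts were 0 and 0, 171 and 60 without both replicates 3, and 0 to 3 higher and 0 lower with 1 library left out. Deviations of same-numbered untransformed and knockout libraries from their group means had correlations of -0.054, -0.0083 and -0.094. This check took in no WT RasG12V library and cannot settle whether replicate numbers pair the samples. A fit with the replicate block called 1662 genes higher and 1560 lower, and 1 gene, Nat8l, higher against WT RasG12V. Over 172 named genes and 2918 alternative values, 117 lost the call, 78 of them with 1 library left out, and 0 reversed. Most of these genes were chosen for passing the threshold in the same libraries, so a reversal was unlikely from the start. At this depth 3 counts correspond to 0.0813 to 0.106 CPM, which limits genes near that level.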

Other observations

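Several genes that mark other cell types were at low levels, and a few of them differed between the groups. Pdgfra, a fibroblast and stellate cell receptor, stood at 0.319, 0.495 and 0.685 CPM in untransformed and 1.45, 1.54 and 1.55 CPM in knockout libraries (log2 fold change 1.60, SE 0.29, adjusted p = 0.0033, edgeR quasi-likelihood test). It was the one tested of 12 stellate cell and fibroblast markers. Csf1r, the receptor of macrophages for Csf1, stood at 0.177, 0.278 and 0.179 and 0.813, 0.759 and 0.882 CPM (log2 fold change 1.95, SE 0.33, adjusted p = 0.00188), and Cdh5, the endothelial cadherin, at 0.0709, 0.124 and 0.0298 and 0.389, 0.515 and 0.395 CPM (log2 fold change 2.51, SE 0.49, adjusted p = 0.00471). All 3 were higher in every knockout library than in any untransformed one, at levels of at most 1.55 CPM. WT RasG12V cells had 1.35, 1.88 and 1.39 CPM of Pdgfra, 0.473, 0.49 and 0.753 of Csf1r and 0.255, 0.45 and 0.482 of Cdh5. The one tested erythroid marker, Tfrc, had no call (0.13, and called lower without untransformed replicate 3, at -0.20). Summed erythroid markers were 239 to 610 CPM in untransformed and 472 to 557 CPM in knockout libraries, almost all from Tfrc. The other 7 of the 8 markers were too low to test, and 4 had no count in the 6 libraries.

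Of 5 tested mesothelial markers, Upk3b, a uroplakin, fell from 1.95, 1.33 and 6.59 to 0.106, 0.136 and 0.122 CPM (log2 fold change -4.70, SE 0.77, adjusted p = 0.00275) and Podxl rose (0.53, SE 0.12; lost without knockout replicate 1 or 3). Untransformed replicate 3 had the highest Upk3b level, and the size of the fall depends on that library. No knockout library overlapped with the untransformed group. Msln and Upk1b had no call (-0.043 and -0.61). Of 10 tested markers of the progenitor line, 6 were lower and 1, Afp, higher, 3 were lower without untransformed replicate 2 or any knockout library, and 2 were higher without untransformed replicate 3.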
